A study of Mus musculus with 6 samples.

Results

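The genes described here are 33 genes of protein folding and stress in the endoplasmic reticulum (ER), chosen by symbol from the 23238 gene symbols counted by RNA sequencing of mouse lung. They comprise 9 lumenal chaperones and co-chaperones, 2 lectin chaperones, 4 protein disulfide isomerases, 6 genes of ER-associated degradation, 3 stress sensors, 7 genes of the ATF4 arm and 2 genes of protein translocation. Each symbol was found once in every table, and all 33 passed the filter on low counts. Lung tissue came from mice of genotype WT that had been given either PM or the vehicle PBS (phosphate-buffered saline) by the route labelled i.t., with 3 samples in each group. The series title calls the exposure chronic, and the question was what it does to gene expression in lung. Dose, duration, age and sex are not in the labels, PM is not spelled out, and separate animals are not mentioned, so the p-values cover only the spread between these samples. PBS replicate 2 has the same value as PBS replicate 1 in each of its 23282 entries, and this pair was therefore used once, as replicate 1, so that 2 PBS libraries stand against 3 PM libraries.

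Total counts lay between 7410200 and 8827202 per library. The lung markers Sftpc (surfactant protein C of alveolar type 2 cells), Scgb1a1 (the club cell secretory protein) and Ager (an alveolar type 1 cell receptor) stood at 2368 CPM or more in every library, CPM being counts divided by the library total after TMM scaling in edgeR, on the usual CPM scale. Over all 14057 tested genes, 0.142% were called higher and 0.0854% called lower in PM (edgeR's quasi-likelihood test, p adjusted by Benjamini and Hochberg's method, BH, below 0.05). PM replicate 2 held the highest value of the 5 libraries for 26.5% of tested genes, and the ribosomal RNA precursor Rn45s made up 25.4% of its counts, against 15.7% to 23.6% in the other libraries. The tissue is bulk lung, so fewer cells of a type and less RNA per cell cannot be told apart.

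Proteins that enter the ER are folded there by chaperones, given disulfide bonds by isomerases and, if they fail to fold, sent back to the cytosol for degradation. When unfolded proteins build up, the sensors IRE1 (gene Ern1), PERK (Eif2ak3) and ATF6 start the unfolded protein response, which raises chaperone and degradation genes and, through PERK and the factor ATF4, genes of amino acid supply and of stress. In lung, surfactant-producing, mucus-producing and antibody-producing cells carry a heavy secretory load.

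ATF6, together with NF-Y, binds the ER stress response element (ERSE), in which CCAAT and CCACG are separated by 9 bases. In the RefSeq promoter table for GRCm38.p6, which holds 300 bases around each start (250 before, 50 after), 29 of the 33 genes had a window. The ERSE, searched on both strands, was in 0.137% of the 27025 genes of the table and in 8 of the 29 matched genes (27.6%). These were Hspa5, Hsp90b1, Dnajc3, Creld2, Calr, Canx, Pdia6 and Syvn1, and Hsp90b1 held it on both strands at different places. The sites are shown to let the element be compared between genes. Each is 29 bases long, read 5′ to 3′ on the strand that carries CCAAT before CCACG, with these fixed bases in capitals.
Hspa5, chr2:34772020-34772048, plus strand: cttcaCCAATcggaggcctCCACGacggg
Hsp90b1, chr10:86705633-86705661, minus strand: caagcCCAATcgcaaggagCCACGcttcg
Hsp90b1, chr10:86705528-86705556, plus strand: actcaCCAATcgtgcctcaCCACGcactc
Pdia6, chr12:17266486-17266514, plus strand: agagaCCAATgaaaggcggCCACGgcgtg
Creld2, chr15:88819515-88819543, minus strand: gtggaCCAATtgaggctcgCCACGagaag
Calr, chr8:84847070-84847098, plus strand: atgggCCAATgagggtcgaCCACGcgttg
Canx, chr11:50325795-50325823, minus strand: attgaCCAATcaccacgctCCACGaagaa
Dnajc3, chr14:118937822-118937850, plus strand: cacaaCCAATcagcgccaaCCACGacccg
Syvn1, chr19:6046527-6046555, plus strand: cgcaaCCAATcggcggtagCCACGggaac

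The 9 elements began at positions from -212 (Hsp90b1) to -44 (Syvn1) relative to the RefSeq start. In the GENCODE M21 annotation of GRCm38, the assembly also called mm10, the Hspa5 site lies in an exon of an Hspa5 transcript that starts earlier, and the other 8 lie outside annotated exons. A related form, ERSE-II (ATTGG, any base, then CCACG), was in 0.0444% of all genes and in Herpud1 and Dnajb11. It is shown for Herpud1, the degradation gene in which it begins at -52.
Herpud1 ERSE-II, chr8:94386368-94386396, plus strand: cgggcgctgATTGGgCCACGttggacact

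ATF4, paired with a C/EBP factor, binds the composite element CARE, searched here as TGATGNAAN on both strands. It was in 4.5% of all genes and in 5 of the 29 matched genes (17.2%), 3 of which belong to the ATF4 arm: Chac1, Asns and Trib3, beside Herpud1 and Txndc5. The 2 sites of the ATF4 arm that lie before the RefSeq start are shown for comparison with the ERSE, with the fixed bases in capitals. The Asns site lies in an exon of an Asns transcript in GENCODE.
Chac1 CARE, chr2:119351038-119351066, minus strand: ctggcaggagTGATGcAAcggcagggaag
Asns CARE, chr6:7693214-7693242, minus strand: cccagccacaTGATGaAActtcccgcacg

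TGACGTGG, the element UPRE bound by XBP1, was in 0.714% of all genes and in 1 matched gene, Txndc5. These matches describe letters in a window, and binding was not measured.

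Of the 33 genes, 1 passed the adjusted test: Atf5 was lower, and 0 were called higher (edgeR, BH adjustment over all tested genes, two-sided). Of all tested genes, 0.0854% were called lower and 0.142% higher. The call of Atf5 was kept in 9 of 14 alternative settings. By nominal p (unadjusted, below 0.05) in edgeR, 8 genes were higher (24.2%, against 7.26% of all tested genes) and 1 lower (3.03%, against 6.05%). The count of 8 fell with either PBS library left out, a fit with a lone PBS library, and so did the count over all tested genes. Without PBS replicate 1 the share of the 33 genes was below that of all tested genes, and without PBS replicate 3 it was above. All PM libraries lay above both PBS libraries for 13 of the 33 genes (39.4%), against 15.5% of all tested genes, and below them for 3 (9.09%), against 16.1%. DESeq2 called 3 genes, Sdf2l1 and Manf as higher and Atf5 as lower, where it called 2.72% of all genes in either direction, and limma-voom called 0. The median log2 fold over the 33 genes was 0.13, against 0.01 over all tested genes, and 0.075 without PM replicate 2. Of the 13 genes with all PM libraries above PBS, 11 were among the 15 chaperones, lectins and isomerases, 2 among the 6 degradation genes, and 0 among the 3 sensors, 7 ATF4 arm genes and 2 translocation genes. Grouping the 15 folding genes was chosen after their values were seen.

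**Figure D1:**
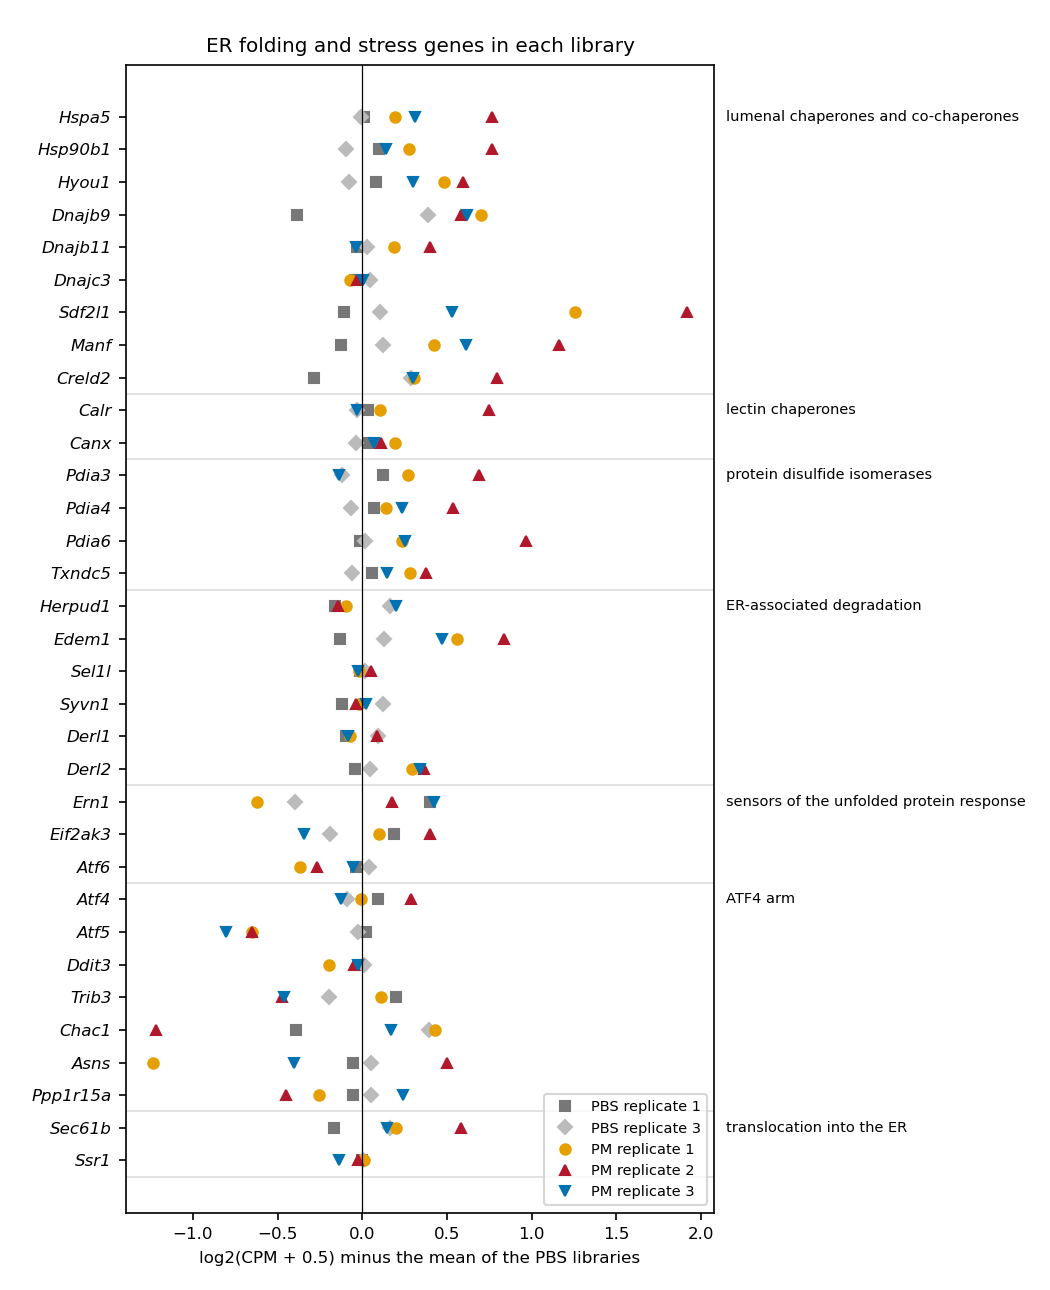
Level of each of the 33 genes in each library as log2(CPM + 0.5) minus the mean of the 2 PBS libraries, grouped by role, with squares and diamonds for PBS and circles and triangles for PM. The folding genes at the top lie mostly to the right of zero in PM, farthest in PM replicate 2, and Atf5 lies to the left in all 3 PM libraries.

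The lumenal chaperones and co-chaperones had the highest median of the 7 roles, a log2 fold of 0.47 over 9 genes, and 0.29 without PM replicate 2. None of the 9 passed the adjusted test in edgeR, 6 were higher by nominal p, and all PM libraries lay above both PBS libraries for 7. Hspa5 encodes BiP, the main Hsp70 chaperone of the ER lumen, which also holds the sensors inactive. It stood at 615 and 608 CPM in PBS replicates 1 and 3 and, in PM replicates 1, 2 and 3, at 699, 1041 and 760 CPM. The PBS values were close together, and each PM value was higher, most of all that of replicate 2. Its log2 fold was 0.45 ± 0.16 SE (edgeR, BH-adjusted p = 0.263). Without PM replicate 2 the log2 fold was 0.26.

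Hsp90b1 encodes GRP94, the ER form of Hsp90. Its level was 613 and 536 CPM in PBS and 695, 975 and 631 CPM in PM replicates 1, 2 and 3. The groups did not overlap, but PM replicate 3 was close to PBS replicate 1. The log2 fold was 0.42 ± 0.18 SE (edgeR, BH-adjusted p = 0.357), and 0.21 without PM replicate 2. Hyou1 (GRP170), which exchanges the nucleotide of BiP, was at 42.0 and 37.4 CPM in PBS and 55.6, 60.2 and 48.9 CPM in PM. Here the 3 PM libraries lay closer to each other, and the log2 fold of 0.47 ± 0.15 SE was 0.40 without PM replicate 2 (edgeR, BH-adjusted p = 0.186).

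The member with the largest difference was Sdf2l1, a small partner of the ER co-chaperones. It was counted at 12.4 and 14.4 CPM in PBS and, in PM replicates 1, 2 and 3, at 32.7, 52.0 and 19.5 CPM. All PM values exceeded both PBS values, with a wide spread among them. The log2 fold of 1.37 ± 0.41 SE did not pass in edgeR (BH-adjusted p = 0.219), while DESeq2 called it (log2 fold 1.37, BH-adjusted p = 0.00762). Without PM replicate 3 edgeR also called it (log2 fold 1.66, BH-adjusted p = 0.00741), and without PM replicate 2 its log2 fold was 0.97.

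Manf, a secreted protein of the ER lumen that binds BiP, was at 62.3 and 74.1 CPM in PBS and at 91.2, 153 and 104 CPM in PM. No PM value came down to the PBS range, and replicate 2 was again the highest. Its log2 fold was 0.77 ± 0.22 SE in edgeR (BH-adjusted p = 0.179), and DESeq2 called it at 0.77 (BH-adjusted p = 0.0281). Dnajb9 (ERdj4), a J-domain protein that returns BiP to the sensor IRE1, was at 9.04 and 15.8 CPM in PBS and at 19.8, 18.2 and 18.7 CPM in PM, so that the PM libraries were close together and the PBS libraries were not. Its log2 fold was 0.61 ± 0.25 SE (edgeR, BH-adjusted p = 0.314), and it was 1.06 without PBS replicate 3 and 0.26 without PBS replicate 1.

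The remaining lumenal genes were Creld2, Dnajb11 and Dnajc3. Creld2, an isomerase-like protein induced by ER stress, was at a log2 fold of 0.47 with no overlap between groups, the closest values being 17.2 CPM in PBS replicate 3 and 17.3 CPM in PM replicate 3. Its log2 fold was 0.20 without PBS replicate 1, 0.80 without PBS replicate 3 and 0.29 without PM replicate 2. The J-domain proteins Dnajb11 (ERdj3) and Dnajc3 (P58IPK) were at log2 folds of 0.20 and -0.03, and their groups overlapped. Without PM replicate 2 the value of Dnajb11 was 0.083. Dnajc3 stood between 174 and 188 CPM in all 5 libraries, and its promoter is one of those with an ERSE.

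**Figure D2:**
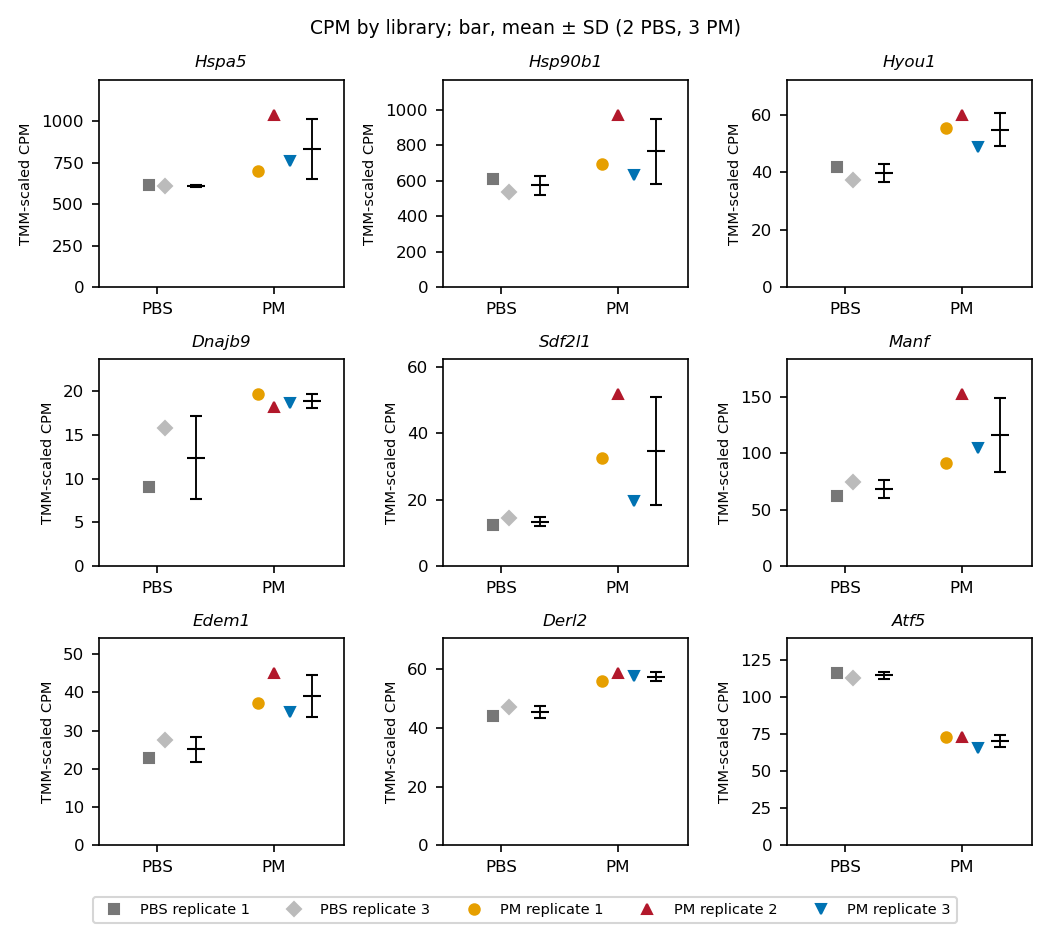
TMM-scaled CPM of the 9 genes that passed edgeR's adjusted test or had no overlap between groups and a nominal p below 0.05, with 1 point per library and the mean ± SD of 2 PBS and 3 PM libraries beside them. Each axis starts at 0. Atf5 is the gene whose PM values, 65.3 to 72.8 CPM, lie below its PBS values, 113 and 116 CPM.

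Calr and Canx, the lectin chaperones that hold newly glycosylated proteins, had log2 folds of 0.31 and 0.13, and neither passed edgeR's test (0 by nominal p, 0 called by DESeq2 or limma-voom). Calr was at 329 and 314 CPM in PBS and, in PM replicates 1, 2 and 3, at 345, 539 and 315 CPM. Only PM replicate 2 stood clearly apart, and the log2 fold was 0.04 without it. Canx ranged from 243 to 255 CPM in PBS and from 261 to 285 CPM in PM, with no overlap and a difference of little size.

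The protein disulfide isomerases had a median log2 fold of 0.31 over 4 genes, and 0.20 without PM replicate 2. PM replicate 2, the highest library for 26.5% of all tested genes, held the highest value for all 4. None passed edgeR's adjusted test, 0 had a nominal p below 0.05, and DESeq2 and limma-voom called 0. Pdia4 (ERp72) was at 44.7 and 40.6 CPM in PBS and at 47.0, 61.9 and 50.3 CPM in PM. Its PM libraries lay above PBS, at a log2 fold of 0.31 ± 0.16 SE (edgeR, BH-adjusted p = 0.423), and 0.19 without PM replicate 2. Pdia6 (P5), Pdia3 (ERp57, the partner of the lectin chaperones) and Txndc5 were at log2 folds of 0.53, 0.31 and 0.27, and at 0.25, 0.08 and 0.22 without PM replicate 2. The groups of Pdia3 overlapped.

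**Figure D3:**
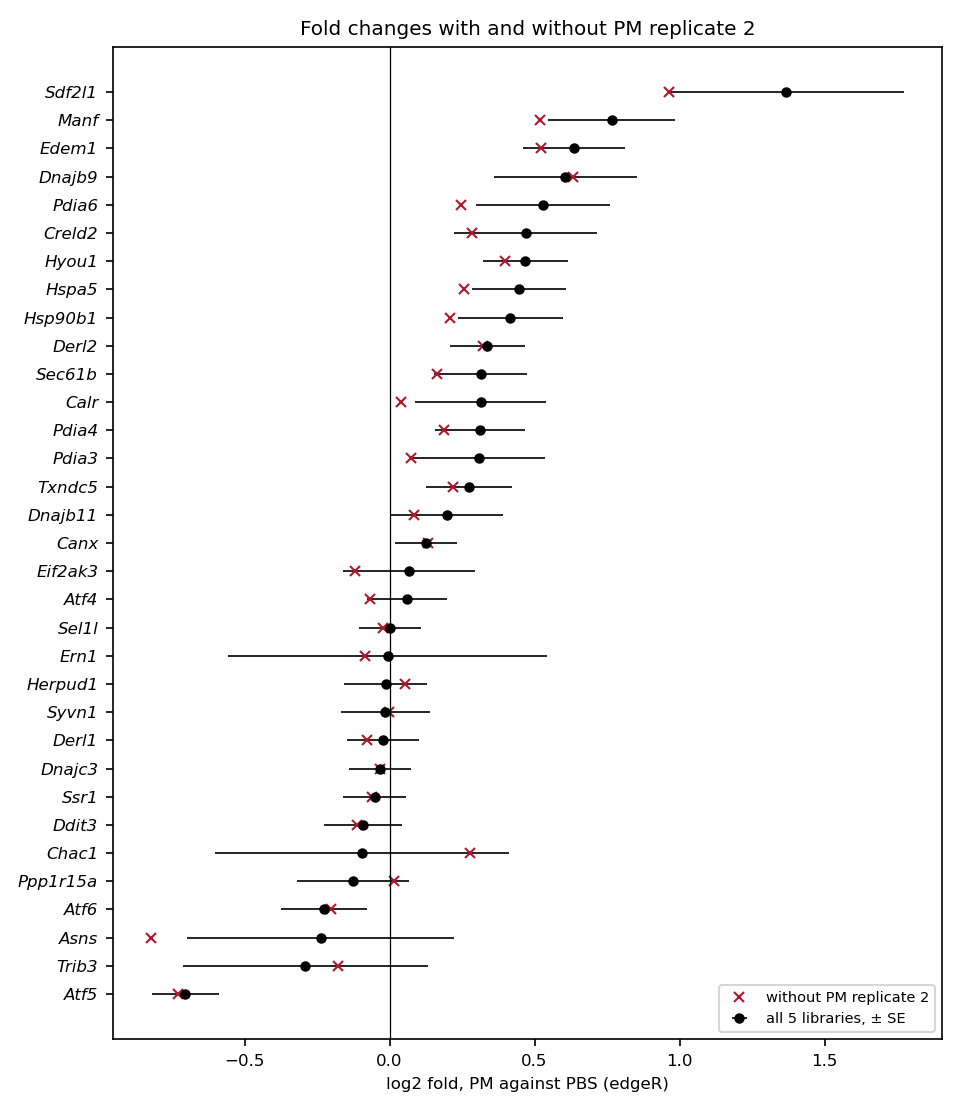
Log2 fold of PM against PBS from edgeR for each of the 33 genes, in order of size, with all 5 libraries (points, bars ± SE) and without PM replicate 2 (crosses). The crosses of Pdia6, Hspa5, Hsp90b1, Calr and Pdia3 lie well left of their points, those of Dnajb9, Derl2, Canx and Atf5 lie close to theirs.

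Across the 15 folding genes the median log2 fold was 0.42 with all libraries and 0.22 without PM replicate 2. PM replicate 2, the highest of the 5 libraries for 26.5% of all tested genes, held the highest value for 12 of the 15. Their summed level was 2643 and 2525 CPM in PBS and 3002, 4152 and 2883 CPM in PM replicates 1, 2 and 3. Leaving PM replicate 2 out, all PM libraries lay above both PBS libraries for 13 of the 33 genes, against 20.9% of all tested genes in the same 4 libraries.

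Markers of several other cell types differed between the libraries as well, and a selection from 18 marker lists is given here. The counts by list stand against 15.5% of all tested genes above PBS in all PM libraries and 16.1% below. Among the lists not detailed, that of alveolar macrophages had 7 of 11 tested genes above PBS in all PM libraries. Those of endothelium and of alveolar type 1 cells each had 5 of 7 below. For mucous airway cells, 12 markers were counted and 10 tested, and their summed level was 44.9 to 52.7 CPM in PBS and 574, 2249 and 164 CPM in PM replicates 1, 2 and 3. Few genes carried these sums. In PBS most of it was Creb3l1, at 45.5 and 37.7 CPM, whose groups overlapped. In PM replicate 2 most of it was Clca1 and Itln1, at 1161 and 700 CPM. Of these 10, 8 had all PM libraries above PBS, and 0 passed edgeR's adjusted test (7 were higher by nominal p, DESeq2 called 7 and limma-voom 0). The mucous markers Muc5ac, Clca1, Gcnt3 and Ern2 had no count in either PBS library. The order of the PM libraries, replicate 2, then 1, then 3, was that of the summed folding genes.

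Markers of dividing cells and of monocytes and monocyte-derived macrophages had that order too. So did fibroblast markers, which did not rise with PM. They summed to 2391 and 2277 CPM in PBS and 2302, 2453 and 1503 CPM in PM replicates 1, 2 and 3. Of 9 tested fibroblast genes, 0 lay above PBS in all PM libraries and 4 lay below. The dividing cell markers summed to 19.3 to 25.3 CPM in PBS and 76.4, 187 and 34.9 CPM in PM, and 6 of their 7 tested genes lay above PBS in all PM libraries. The monocyte and macrophage markers summed to 877 to 898 CPM in PBS and 980, 1218 and 922 CPM in PM, with 8 of 10 tested genes above PBS in all PM libraries and 1 called higher by edgeR after BH adjustment.

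The other secretory cells did not all have this order. Alveolar type 2 cell markers summed to 25756 and 20919 CPM in PBS and to 26723, 24705 and 25513 CPM in PM. Their median log2 fold was 0.02, and 2 of 8 tested genes (25%) lay above PBS in all PM libraries, against 15.5% of all tested genes. Club cell markers were highest in PM replicate 3, at 42005 CPM, against 22739 and 28940 CPM in PM replicates 1 and 2 and 26933 and 29403 CPM in PBS. Of the club cell markers, 1 of 6 (16.7%) lay above PBS in all PM libraries, close to the share of all tested genes.

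Plasma cell markers summed to 286 to 287 CPM in PBS and to 401, 407 and 361 CPM in PM replicates 1, 2 and 3. Of their 10 tested genes, 3 (30%) lay above PBS in all PM libraries, against 15.5% of all tested genes. PM replicates 1 and 2 were nearly level, and the sum includes Txndc5, one of the 33 genes, and Xbp1, which is expressed in many cell types. Jchain, the joining chain of antibodies and the 1 gene of the list that rose, was at 5.56 and 3.46 CPM in PBS and highest in PM replicate 1, at 76.2, 68.6 and 46.3 CPM in PM. Mzb1, a chaperone partner in antibody-producing cells, was at 7.76 and 4.20 CPM in PBS and at 25.2, 6.02 and 12.6 CPM in PM, lowest of the PM libraries in replicate 2. The receptor Tnfrsf17, a defining plasma cell marker, was at 0.46 CPM or less in all libraries. The part of these cell types in the folding gene values was not tested.

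**Figure D4:**
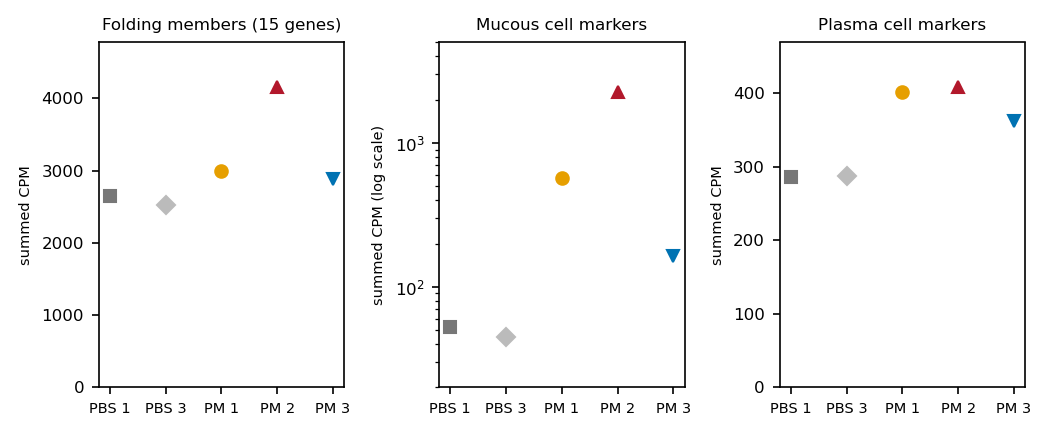
Summed CPM in each library of the 15 folding genes, of 12 mucous cell markers (log scale) and of 11 plasma cell markers, 1 of which, Txndc5, is also a folding gene. All 3 sums are higher in the PM libraries than in PBS. PM replicate 2 stands apart in the folding and mucous sums, and in the plasma cell sum it is nearly level with PM replicate 1, at 407 and 401 CPM.

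The genes of ER-associated degradation were split. Their median log2 fold was -0.01 over 6 genes, and between -0.062 and 0.13 with 1 library left out. None of them passed edgeR's adjusted test, 2 were higher by nominal p, and DESeq2 and limma-voom called 0. Edem1, which draws misfolded glycoproteins out of the folding cycle, was at 22.8 and 27.4 CPM in PBS and at 37.2, 45.1 and 34.8 CPM in PM. Every PM library was higher than both PBS libraries, and the log2 fold of 0.63 ± 0.18 SE did not pass (edgeR, BH-adjusted p = 0.145). Derl2, a derlin of the retrotranslocation channel, was at 44.2 and 47.0 CPM in PBS and at 56.0, 58.9 and 57.9 CPM in PM. Its PM libraries lay close together, and its log2 fold was 0.34 ± 0.13 SE (edgeR, BH-adjusted p = 0.285).

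The other 4 degradation genes had log2 folds from -0.02 (Derl1) to 0.00 (Sel1l). Herpud1, which gathers the degradation complex and is a common marker of the unfolded protein response, was at 135 and 168 CPM in PBS and at 141, 136 and 173 CPM in PM. Its groups overlapped fully, with a log2 fold of -0.01 ± 0.14 SE (edgeR, BH-adjusted p = 0.984). Sel1l and Syvn1 (HRD1), the adaptor and the ubiquitin ligase of the central degradation complex, and Derl1, the other derlin, overlapped as well, and Sel1l stayed between 147 and 156 CPM in all 5 libraries.

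None of the 3 sensors passed edgeR's test, and 0 had a nominal p below 0.05 or a call by DESeq2 or limma-voom. Ern1, which encodes IRE1, had the lowest level per length of the 33 genes. It stood at 3.59 and 1.85 CPM in PBS and at 1.52, 3.01 and 3.66 CPM in PM, with overlapping groups. Its log2 fold was -0.01 ± 0.55 SE (edgeR, BH-adjusted p = 0.997). At 31 counts or fewer per library this allows no firm statement in either direction. Eif2ak3, which encodes PERK, was at 27.6 and 21.1 CPM in PBS and at 25.8, 32.0 and 18.9 CPM in PM, with the PBS values inside the PM range. Atf6 was at 43.9 and 46.4 CPM in PBS and at 34.9, 37.4 and 43.5 CPM in PM. All 3 PM values were lower, PM replicate 3 by a narrow margin, and the log2 fold was -0.23 ± 0.15 SE (edgeR, BH-adjusted p = 0.548).

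In the ATF4 arm Atf5 fell, and the median log2 fold over the 7 genes was -0.13, and -0.061 without PM replicate 1 or -0.082 without PBS replicate 3. Atf5, a transcription factor translated under stress like ATF4, was at 116 and 113 CPM in PBS and, in PM replicates 1, 2 and 3, at 72.7, 72.8 and 65.3 CPM. These values rest on 1004 counts in PBS replicate 1 and 518 in PM replicate 3. The groups were far apart and each was narrow. Its log2 fold was -0.70 ± 0.12 SE, a ratio of PM to PBS of 0.614 (edgeR, BH-adjusted p = 0.0379). Without PBS replicate 1, PBS replicate 3 or PM replicate 1 edgeR's BH-adjusted p was 0.444, 0.266 or 0.0950, at log2 folds of -0.68, -0.73 and -0.73, and over the 14 alternative settings the fold ranged from -0.73 to -0.65.

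Atf5 lies on chromosome 7 at 44812256 to 44816658, minus strand, in GRCm38. Of its 1993 exon bases, 82 overlap exons of Nup62 on the opposite strand, and whether counting used strand is not stated in the labels. Hsp90b1 shares 10.3% of its exon bases with 1810014B01Rik and Txndc5 shares 4.99% with Bmp6, also on the opposite strand. Nup62, a nuclear pore protein, ranged from 28.4 to 34.9 CPM with overlapping groups, at a log2 fold of 0.14 ± 0.16 SE (edgeR, BH-adjusted p = 0.768). The 250 bases before the Atf5 start are shown because it is the member that changed, beside those of Sdf2l1, the member with the largest fold, and of Creld2, in which the ERSE reads on the opposite strand. They were taken from RefSeq on GRCm38.p6 and run in the direction of each gene, with the fixed bases of any searched element in capitals. None of the 4 elements was found in the Atf5 and Sdf2l1 windows. The Atf5 window shown is the one whose start matches the GENCODE gene, and a second RefSeq start of Atf5 also had no match.
Atf5, chr7:44816659-44816908, minus strand: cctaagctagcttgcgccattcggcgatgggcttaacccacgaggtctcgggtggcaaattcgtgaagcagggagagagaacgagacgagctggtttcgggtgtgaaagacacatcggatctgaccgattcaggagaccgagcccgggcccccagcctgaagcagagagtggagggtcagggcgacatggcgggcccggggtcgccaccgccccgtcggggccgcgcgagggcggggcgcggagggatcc
Sdf2l1, chr16:17132384-17132633, minus strand: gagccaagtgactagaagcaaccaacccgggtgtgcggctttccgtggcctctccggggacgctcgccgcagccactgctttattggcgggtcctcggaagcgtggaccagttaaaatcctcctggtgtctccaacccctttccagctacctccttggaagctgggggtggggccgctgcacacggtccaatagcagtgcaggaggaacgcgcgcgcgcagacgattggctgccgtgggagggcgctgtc
Creld2, chr15:88819396-88819645, plus strand: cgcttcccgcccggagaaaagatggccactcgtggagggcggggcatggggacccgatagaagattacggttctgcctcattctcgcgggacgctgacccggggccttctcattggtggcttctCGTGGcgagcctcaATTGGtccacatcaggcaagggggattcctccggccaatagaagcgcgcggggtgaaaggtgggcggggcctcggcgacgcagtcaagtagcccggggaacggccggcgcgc

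None of the other ATF4 arm genes passed edgeR's adjusted test, and 0 had a nominal p below 0.05 or a call by DESeq2 or limma-voom. Atf4 itself, the factor at the centre of the arm, was at 288 and 253 CPM in PBS and at 269, 330 and 248 CPM in PM, with overlapping groups and a log2 fold of 0.06 ± 0.14 SE (edgeR, BH-adjusted p = 0.901). Its activity is set largely by translation, which RNA counts do not measure. Ddit3 (CHOP), a factor of stress-induced cell death, was at 50.4 and 51.1 CPM in PBS and at 44.2, 49.0 and 49.8 CPM in PM. Those PM values were all below PBS by narrow margins, and the log2 fold was -0.09 ± 0.13 SE (edgeR, BH-adjusted p = 0.823). Of the exon bases of Ddit3, 3.97% overlap Mars on the opposite strand. Whether the fold of Atf5 differs from those of the other members was not tested.

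The 4 remaining genes of the arm had overlapping groups. Trib3, a pseudokinase induced by CHOP, Chac1, which degrades glutathione, and Asns, the asparagine synthetase, stood between 2.01 and 12.5 CPM in all libraries. Asns was at 3.39 CPM in PM replicate 1 and 12.5 CPM in PM replicate 2, on either side of 8.34 and 9.01 CPM in PBS. Chac1 went the other way, with 7.36 CPM in PM replicate 1 and 2.01 CPM in PM replicate 2. Ppp1r15a (GADD34), which restores translation after stress, was at 52.5 and 56.6 CPM in PBS and at 45.6, 39.7 and 64.6 CPM in PM. PM replicate 2, the highest library for most folding genes, was the lowest of the 5 for Chac1, Ppp1r15a and, by a narrow margin, Trib3. It was the highest of the 5 for Atf4 and Asns. Its Trib3 and Chac1 values rest on 20 and 14 counts.

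Sec61b, a subunit of the translocation channel, was at 70.6 and 88.9 CPM in PBS and at 90.9, 119 and 87.6 CPM in PM. Its PM replicate 3 lay below PBS replicate 3, and the log2 fold of 0.31 ± 0.16 SE (edgeR, BH-adjusted p = 0.436) came to 0.16 with either PBS replicate 1 or PM replicate 2 left out and to 0.49 with PBS replicate 3 left out. Ssr1, a subunit of the translocon-associated complex, was within 154 to 171 CPM in all libraries, at a log2 fold of -0.05.

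Levels between genes were compared per kilobase of exon, using the union of GENCODE exons, which understates genes with long rarely used exons. In PBS, Hspa5 and Hsp90b1 were highest at 145 and 143 CPM per kilobase, followed by Atf4 at 115, Calr at 112 and Pdia3 at 69.4. The spread between the PBS libraries of Hsp90b1, Atf4 and Calr does not separate Hspa5 from Hsp90b1 or Atf4 from Calr. Ern1 was lowest at 0.333 CPM per kilobase, below Trib3 at 1.99 and Asns at 3.17. In PM the order began with Hspa5 at 197 and Hsp90b1 at 190 CPM per kilobase, and Calr at 139 stood above Atf4 at 120.

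Genes that hold an ERSE were read beside those that do not, a comparison chosen after the values were seen. The 8 genes with an ERSE had a median log2 fold of 0.37, with all PM libraries above PBS for 5 of them. The 21 matched genes without one had a median of 0.06, with 6 of 21 above. Of all tested genes, 15.5% were above. Without PM replicate 2 these medians were 0.17 and 0.05, and without PBS replicate 1 they were 0.28 and 0.16, so the gap between them depends on single libraries. All of the 8 but Syvn1 belong to the 15 folding genes, and the 21 include the 7 genes of the ATF4 arm. Element and role therefore cannot be told apart in this comparison. Folding genes with an ERSE had log2 folds from -0.03 (Dnajc3) to 0.53 (Pdia6). Those without a match or a window had log2 folds from 0.20 (Dnajb11) to 1.37 (Sdf2l1). Sdf2l1, Edem1, Hyou1, Manf, Dnajb9 and Derl2, whose folds were among the larger, were without a match or without a window. Outside the 33 genes, 12 tested genes held an ERSE, and their median log2 fold was 0.23. Of these, 4 were above and 1 below, against 15.5% and 16.1% of all tested genes. The 12 include Xlr3a, Xlr3b and Xlr3c, which share a family name, and Derl3, at 3.44 CPM or less. Their median was not taken with libraries left out.

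The wider machinery of the ER was given by 5 lists of other genes. The share higher in PM by nominal p was 6.67% for lumenal folding, 8.33% for degradation and 3.57% for translocation and glycan transfer. It was 13.3% for other factors of the unfolded protein response and 9.52% for the integrated stress response, against 7.26% of all tested genes. Of 30 tested genes of lumenal folding, 0 passed edgeR's adjusted test, 2 were higher by nominal p, DESeq2 and limma-voom called 0, and the median log2 fold was 0.05, which turned to -0.039 without PM replicate 2. The 2 were Serp1, which stabilises membrane proteins during ER stress, at a log2 fold of 0.50, and Tmed2, a cargo receptor of the early secretory pathway, at 0.37. Of 24 tested degradation genes, 0 passed edgeR's adjusted test, 2 were higher by nominal p, DESeq2 and limma-voom called 0, and the median was 0.11. That median was 0.00044 without PBS replicate 1, and 0.032 and 0.041 when PM replicates 1 and 3 were left out in turn. Vcp, the ATPase that pulls proteins out of the ER membrane, was at 325 and 280 CPM in PBS and at 433, 381 and 397 CPM in PM, at a log2 fold of 0.42 ± 0.12 SE (edgeR, BH-adjusted p = 0.150). Ube2j1, a ubiquitin-conjugating enzyme, was at a log2 fold of 0.36 and Derl3, the derlin of secretory cells, at 1.66, with PM values of 2.45, 3.44 and 0.50 CPM around the PBS values of 0.58 and 0.74 CPM.

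Translocation and glycan transfer genes had a median log2 fold of 0.07 over 28 tested genes, 0.036 without PM replicate 2 and 0.17 without PM replicate 1. None passed edgeR's adjusted test, by nominal p 1 was higher and 1 was lower, and neither DESeq2 nor limma-voom called any. Sec62, a translocation factor, was at 519 and 464 CPM in PBS and at 381, 391 and 414 CPM in PM, a log2 fold of -0.31, and Spcs3, a signal peptidase subunit, was at 0.47. Other factors of the unfolded protein response had a median of 0.16 over 15 tested genes, and of 0.047 without PM replicate 2. Of these 0 passed edgeR's adjusted test, 2 were higher by nominal p, DESeq2 called 1 and limma-voom 0. Xbp1, the target of IRE1, was at 95.7 and 110 CPM in PBS and at 102, 130 and 119 CPM in PM, at a log2 fold of 0.19 (edgeR, BH-adjusted p = 0.587). The table does not tell its spliced from its unspliced form. Ern2, the IRE1 form of mucous epithelium, had 0 counts in each PBS library and stood at 1.75, 3.01 and 0.25 CPM in PM. Bak1, a pore-forming protein of apoptosis, was at a log2 fold of 0.58 with overlapping groups.

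The last list held 42 tested genes of the integrated stress response outside the 33, with a median log2 fold of 0.08. None passed edgeR's adjusted test, 4 were higher by nominal p, DESeq2 called 2 and limma-voom 0. Slc7a11, the cystine transporter, which is a target of ATF4 and of NRF2, was at 1.27 and 1.73 CPM in PBS and at 6.90, 14.9 and 6.05 CPM in PM, at a log2 fold of 2.61 ± 0.50 SE (edgeR, BH-adjusted p = 0.0530). Cebpb, a C/EBP factor, was at 73.9 and 69.8 CPM in PBS and at 106, 104 and 110 CPM in PM, at a log2 fold of 0.57 ± 0.11 SE (edgeR, BH-adjusted p = 0.0592). Atf3, an early stress factor, was at 9.16 and 4.07 CPM in PBS and at 13.6, 29.1 and 11.3 CPM in PM, at a log2 fold of 1.43 (edgeR, BH-adjusted p = 0.316). These 3 genes were named for their small p or by name. Over the whole list, 7 of the 42 genes (16.7%) had all PM libraries above PBS, close to the share of all tested genes, and 33 overlapped. Without PM replicate 2 the median of the list was 0.016, and without PBS replicate 1 it was 0.21.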

How the data were processed

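Per the labels' protocols, total RNA of lung was isolated with easy-BLUE and libraries were made with the SENSE mRNA-Seq kit. TopHat, Cufflinks and mm10 are named in the submitters' processing notes. How reads were counted, with which annotation and strand setting, was not given in the sources used here. Deposited values are raw counts per gene symbol, with no normalization by the authors. Of entries that share a symbol the one with the highest total was kept (44 set aside).

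Counts were tested with edgeR 4.0.16 in R 4.3.3 (filterByExpr, TMM, robust quasi-likelihood test, two-sided, no covariate, Benjamini-Hochberg adjustment over 14057 genes, threshold 0.05). SE is the size of the log2 fold divided by the square root of F. The procedure was tested on simulated counts, where it recovered 64 of 100 changes of 2-fold and 97 of 100 of 4-fold. These changes were placed only in genes above a floor on mean CPM, so the recovery does not cover genes at few counts. Of its 174 calls, 13 were false. The data gave 32 calls, and with fewer calls the BH threshold is stricter, so recovery in the data may be lower. Changes smaller than 2-fold, the size of most folds reported here, were not simulated. Alternatives were DESeq2 1.42.0, limma-voom (limma 3.58.1), other scaling and filters, each library left out, all 6 tables, and a replicate block. The genes, lists and rules were chosen with earlier results of these data known. Per-library values are given for genes past the adjusted test, for genes with no overlap and an unadjusted p below 0.05, and for 12 genes fixed by name. Of the wider lists the called genes or the 2 with the smallest p are named, with Xbp1, Derl3 and Atf3. Symbols were matched to GENCODE and RefSeq on GRCm38.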

Additional observations from a re-analysis of the deposited data

How the results depend on the processing

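Of the 33 genes, 3 were called by DESeq2, 0 by limma-voom, 0 without robust estimation, 5 with all 6 tables as deposited (which counts a PBS library 2 times) and 2 with the replicate block, against 1 in the fit reported. Leaving out 1 library gave 0 to 2. Over all genes the count was 275 without a filter, 382 by DESeq2, 17 by limma-voom, 635 with all 6 tables and 353 with the replicate block, and 1 to 427 with 1 library left out, against 32. Members higher at an unadjusted p below 0.05 numbered 13 with all 6 tables, and 1 to 11 with 1 library left out: 1 without PBS replicate 1 and 5 without PBS replicate 3. Members with all PM libraries above PBS numbered 13 to 17 with 1 library left out, a check added after the data were seen. The share over all tested genes rose as well, to between 20.9% (without PM replicate 2) and 27.3% (without PBS replicate 1), against 15.5% with all 5 libraries. Without PBS replicate 1 the count of members was 14. Where a PBS library is left out, the lone one is assumed to vary like the PM libraries. The median over members kept its sign in every setting, from 0.07 with the replicate block to 0.24. Atf5 kept its sign in all 14 settings and missed the threshold in 5 of them, including limma-voom (adjusted p = 0.0840 with Benjamini-Hochberg adjustment) and no robust estimation (0.0568). The replicate numbers are not said to mark a shared animal, the numbers shared by distinct libraries are 1 and 3, and deviations from the group means correlated at -0.03 and 0.06 for these pairs. Sdf2l1 and Manf were each called in 3 of the 14 settings. Log2 folds near 0 changed sign. With all 6 tables, where PBS replicate 1 counts 2 times, Herpud1 was 0.046, Syvn1 0.033, Derl1 0.012 and Chac1 0.059. Without a filter Sel1l was -0.0013, and the cause was not tested. In the replicate block PM replicate 2 has no PBS library of its number, so that fit takes no PM contrast from it. The block is therefore close to leaving PM replicate 2 out, with log2 folds of 0.25 and 0.26 for Hspa5 and 0.037 and 0.039 for Calr. With the replicate block Herpud1 was 0.052, Sel1l -0.024, Syvn1 0.0030, Eif2ak3 -0.13, Atf4 -0.067 and Chac1 0.32. With 1 library left out the log2 fold ranged from -0.074 to 0.011 for Dnajc3, -0.16 to 0.16 for Herpud1, -0.023 to 0.018 for Sel1l, -0.13 to 0.11 for Syvn1, -0.11 to 0.072 for Derl1, -0.40 to 0.55 for Ern1, -0.12 to 0.27 for Eif2ak3, -0.067 to 0.16 for Atf4, -0.46 to 0.39 for Chac1, -0.82 to 0.12 for Asns and -0.35 to 0.014 for Ppp1r15a. Genes at few counts, such as Ern1, Trib3 and Chac1, allow no firm statement at this depth.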
